A study of Mus musculus with 3 samples.

Results

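Tex10, the gene targeted in these mice, was followed together with Pelp1, Wdr18, Senp3, Las1l, Nol9 and Mdn1, whose products form a nucleolar complex with it. The 7 genes were chosen by symbol from the 32285 genes of the count tables, and each symbol matched a row. Gene expression was counted in single cells of dissociated testis from adult C57BL/6N mice, in 3 libraries made with 10x Genomics Chromium 3′ chemistry. Wildtype replicate 1 and wildtype replicate 2 each held cells of 1 wildtype mouse. The third library pooled cells of 2 mice whose genotype is given as a conditional knockout of Tex10, and it is called the knockout library here. Which Cre was used and which exons it removes is not in the labels, and they do not say whether the wildtype mice carried Cre or a floxed allele. The cell types in which Tex10 was to be deleted are therefore not known here. The chemistry counts the 3′ ends of transcripts, which may lie outside the deleted part, and Tex10 counts would then check nothing about the deletion. With 1 knockout library there is no test of knockout against wildtype, and the genotype cannot be told apart from the library.

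PELP1, WDR18 and TEX10 form the scaffold of the complex, which is also called the rixosome when it is joined by the enzymes below. SENP3 is a protease that removes the small modifier SUMO from PELP1 and from other nucleolar proteins. LAS1L is the endonuclease that cuts the internal spacer between the 5.8S and 28S parts of the ribosomal RNA precursor, and NOL9 is the kinase that phosphorylates the end left by that cut. MDN1 is a very large ATPase that remodels the maturing large ribosomal subunit and releases assembly factors from it. In the testis, spermatogonia divide and grow, spermatocytes silence the X chromosome during meiosis, and spermatids shut down transcription as they elongate.

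Germ cells fell into 12 clusters that were ordered by similarity of expression from spermatogonia to elongating spermatids, without using the 7 genes to cluster the cells. Cluster 1 was spermatogonia-like, cluster 3 leptotene-zygotene-like, cluster 4 pachytene-like, cluster 6 diplotene-to-dividing-like, cluster 7 round-spermatid-like and clusters 9 to 12 elongating-spermatid-like, by their marker genes. Clusters 2, 5 and 8 stayed unnamed and are called by leading genes, Stra8 in cluster 2, Pou5f2 in cluster 5 and Fam71b in cluster 8. Their best marker match was leptotene-zygotene for cluster 2, pachytene for cluster 5 and round spermatid for cluster 8. The names were withheld because markers of another type were among their leading genes. Stage names below stand for these marker-defined classes, so that pachytene means pachytene-like. A level is given in CPM, the unique molecular identifiers (UMIs) of a gene per 1000000 UMIs summed over the cells of a cluster in a library. Where 3 values stand in a row, the first is wildtype replicate 1, the next wildtype replicate 2 and the last the knockout library. The leptotene-zygotene markers summed to 10936, 10146 and 11645 CPM in cluster 2 and to 10822, 10647 and 11288 CPM in cluster 3. The name leptotene-zygotene stands for cluster 3 alone unless another classing is named. A difference between clusters 2 and 3 therefore need not mark the entry into that stage. Intervals are exact 95% Poisson intervals and cover counting error only. The median germ cell held 15980.5, 12209 and 20801.5 UMIs. Low-UMI clusters held 54.5%, 39.6% and 64.6% of kept barcodes and were left out of the stages, and 27 to 30 barcodes were shared between each pair of libraries. Because counts are taken at the 3′ end and not over the length of a transcript, patterns are compared between genes, and levels only within a gene.

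The 7 genes lie on 4 chromosomes of GRCm38 and are all protein-coding. Tex10 (chr4:48430858-48473459, minus strand), Mdn1 (chr4:32657119-32775217, plus strand) and Nol9 (chr4:152039321-152061494, plus strand) share chromosome 4. Pelp1 (chr11:70392883-70410031) and Senp3 (chr11:69673115-69682084) both lie on the minus strand of chromosome 11. Wdr18 (chr10:79960152-79970203, plus strand) lies on chromosome 10, and Las1l (chrX:95935335-95956962, minus strand) is the X-linked member. Exons of Tex10 overlap those of Invs on the opposite strand, and the use of strand in counting is not given in the sources used here. Invs stood at 5.65, 8.96 and 6.34 CPM in spermatogonia against 143, 125 and 131 CPM of Tex10, and at 4.35 to 8.70 CPM in leptotene-zygotene and pachytene cells. In myoid-like cells it stood at 7.20, 12.9 and 9.57 CPM against 27.0, 21.4 and 19.1 CPM of Tex10, so that Tex10 is least certain there. Of the 31-base words in the last 500 bases of its transcripts, Wdr18 shared 12.3%, Senp3 10.8% and Nol9 5.85% with other genes, so that these 3 counts carry some uncertainty, while the other members shared none.

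The promoters of Tex10, Pelp1 and Wdr18 are shown because these 3 genes make up the scaffold, and because Pelp1 and Wdr18 both rose into pachytene while Tex10 fell there. They run from 250 bases before the annotated start to 30 after it, 5′ to 3′ on the gene's strand, from RefSeq on GRCm38.p6, and capitals mark the motifs found on either strand. Tex10 is chr4:48473434-48473713 (minus strand), Pelp1 is chr11:70410002-70410281 (minus strand) and Wdr18 is chr10:79959902-79960181 (plus strand).
Tex10: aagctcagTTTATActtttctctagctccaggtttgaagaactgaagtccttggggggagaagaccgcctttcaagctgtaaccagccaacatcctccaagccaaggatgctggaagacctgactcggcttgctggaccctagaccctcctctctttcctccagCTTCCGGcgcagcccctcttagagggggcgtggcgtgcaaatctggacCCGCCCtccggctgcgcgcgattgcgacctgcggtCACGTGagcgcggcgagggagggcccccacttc
Pelp1: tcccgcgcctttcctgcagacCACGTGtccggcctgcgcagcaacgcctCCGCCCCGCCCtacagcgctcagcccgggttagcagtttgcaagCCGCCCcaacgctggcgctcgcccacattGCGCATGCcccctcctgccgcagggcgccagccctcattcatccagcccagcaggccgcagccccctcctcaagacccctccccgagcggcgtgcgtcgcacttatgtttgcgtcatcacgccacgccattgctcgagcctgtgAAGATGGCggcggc
Wdr18: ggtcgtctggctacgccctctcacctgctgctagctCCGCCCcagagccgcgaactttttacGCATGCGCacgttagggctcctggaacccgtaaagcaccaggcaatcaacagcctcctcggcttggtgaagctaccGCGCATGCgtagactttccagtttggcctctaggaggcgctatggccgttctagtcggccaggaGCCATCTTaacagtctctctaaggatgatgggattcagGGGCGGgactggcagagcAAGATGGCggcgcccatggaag
The letters searched on both strands were CACGTG for the E-box, CCGGAAG for ETS factors, GCGCATGC for NRF1, TGACGTCA for the cyclic AMP element, AACNGTT for MYB factors, AAGATGGC for YY1, GGGCGG for SP factors and TATAAA for the TATA box, and matches may overlap. Counting -1 as the last base before the start, Pelp1 held the NRF1 letters at -128 and Wdr18 at -188 and -112, against 2.71% of 32851 promoters that hold them within 250 bases before and 50 after the start. Pelp1 held the YY1 letters at 17 and Wdr18 at -48 and 9, against 2.75% of promoters. Tex10 held neither in this window. It held ETS matches at -86 and 27 and an E-box at -3, letters that 8.86% and 7.15% of promoters hold. These were not particular to Tex10: Pelp1 held an E-box at -229, Mdn1 an E-box at 39 and Las1l an ETS match at -164. None of the other 4 members held the NRF1 or YY1 letters. SP letters stood in the windows of Tex10, Pelp1 and Wdr18, as in 35.7% of promoters. The windows of Tex10, Pelp1 and Wdr18 held 21, 30 and 20 CpG pairs, against a median of 7 over all promoters. The NRF1, ETS, E-box and SP letters contain CpG, and shares among promoters so rich in CpG were not taken. Such matches describe the letters only.

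Tex10 was highest in the Stra8-led cluster that follows spermatogonia and was low in elongating spermatids. Between these it declined, apart from a small rise from pachytene cells to the Pou5f2-led cluster. In the Stra8-led cluster it stood at 200.3, 167 and 163 CPM. In spermatogonia the levels were 143, 125 and 131 CPM, and in leptotene-zygotene cells 86.3, 87.3 and 82.4 CPM. The values of the wildtype pair did not overlap between any of these 3 clusters, although the counting intervals of the first and the second did. The pachytene levels were 55.1, 55.8 and 46.5 CPM, and those of the Pou5f2-led cluster 62.0, 60.1 and 53.6 CPM. Diplotene-to-dividing cells held 52.5, 47.4 and 36.6 CPM and round spermatids 28.0, 25.6 and 20.4 CPM. From the Fam71b-led cluster onward every wildtype value lay between 1.71 and 10.2 CPM, on 8 to 37 UMIs a library. Ordered by the wildtype mean, the levels fell from cluster 2 (184 ± 23.6 CPM, SD, n = 2) over cluster 1 (134 ± 12.7 CPM) and cluster 3 (86.8 ± 0.72 CPM) to cluster 5 (61.1 ± 1.41 CPM). Cluster 4 (55.5 ± 0.51 CPM) lay below cluster 5 in both wildtype libraries, and Sertoli-like cells (55.5 ± 17.9 CPM) overlapped both. Round spermatids and the other somatic types could not be separated beyond the spread of the wildtype pair: Leydig-like cells held 28.0 ± 13.1 CPM, round spermatids 26.8 ± 1.65 CPM and myoid-like cells 24.2 ± 3.93 CPM.

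Counted per cell and not per UMI, the order differs, and the cells of the Pou5f2-led cluster hold the most UMIs. Tex10 had 4.99, 3.79 and 5.39 UMIs per cell there, against 1.70, 1.19 and 2.06 in spermatogonia. A lower CPM is thus a lower share of the counted transcripts and need not be a lower number per cell.

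**Figure D1:**
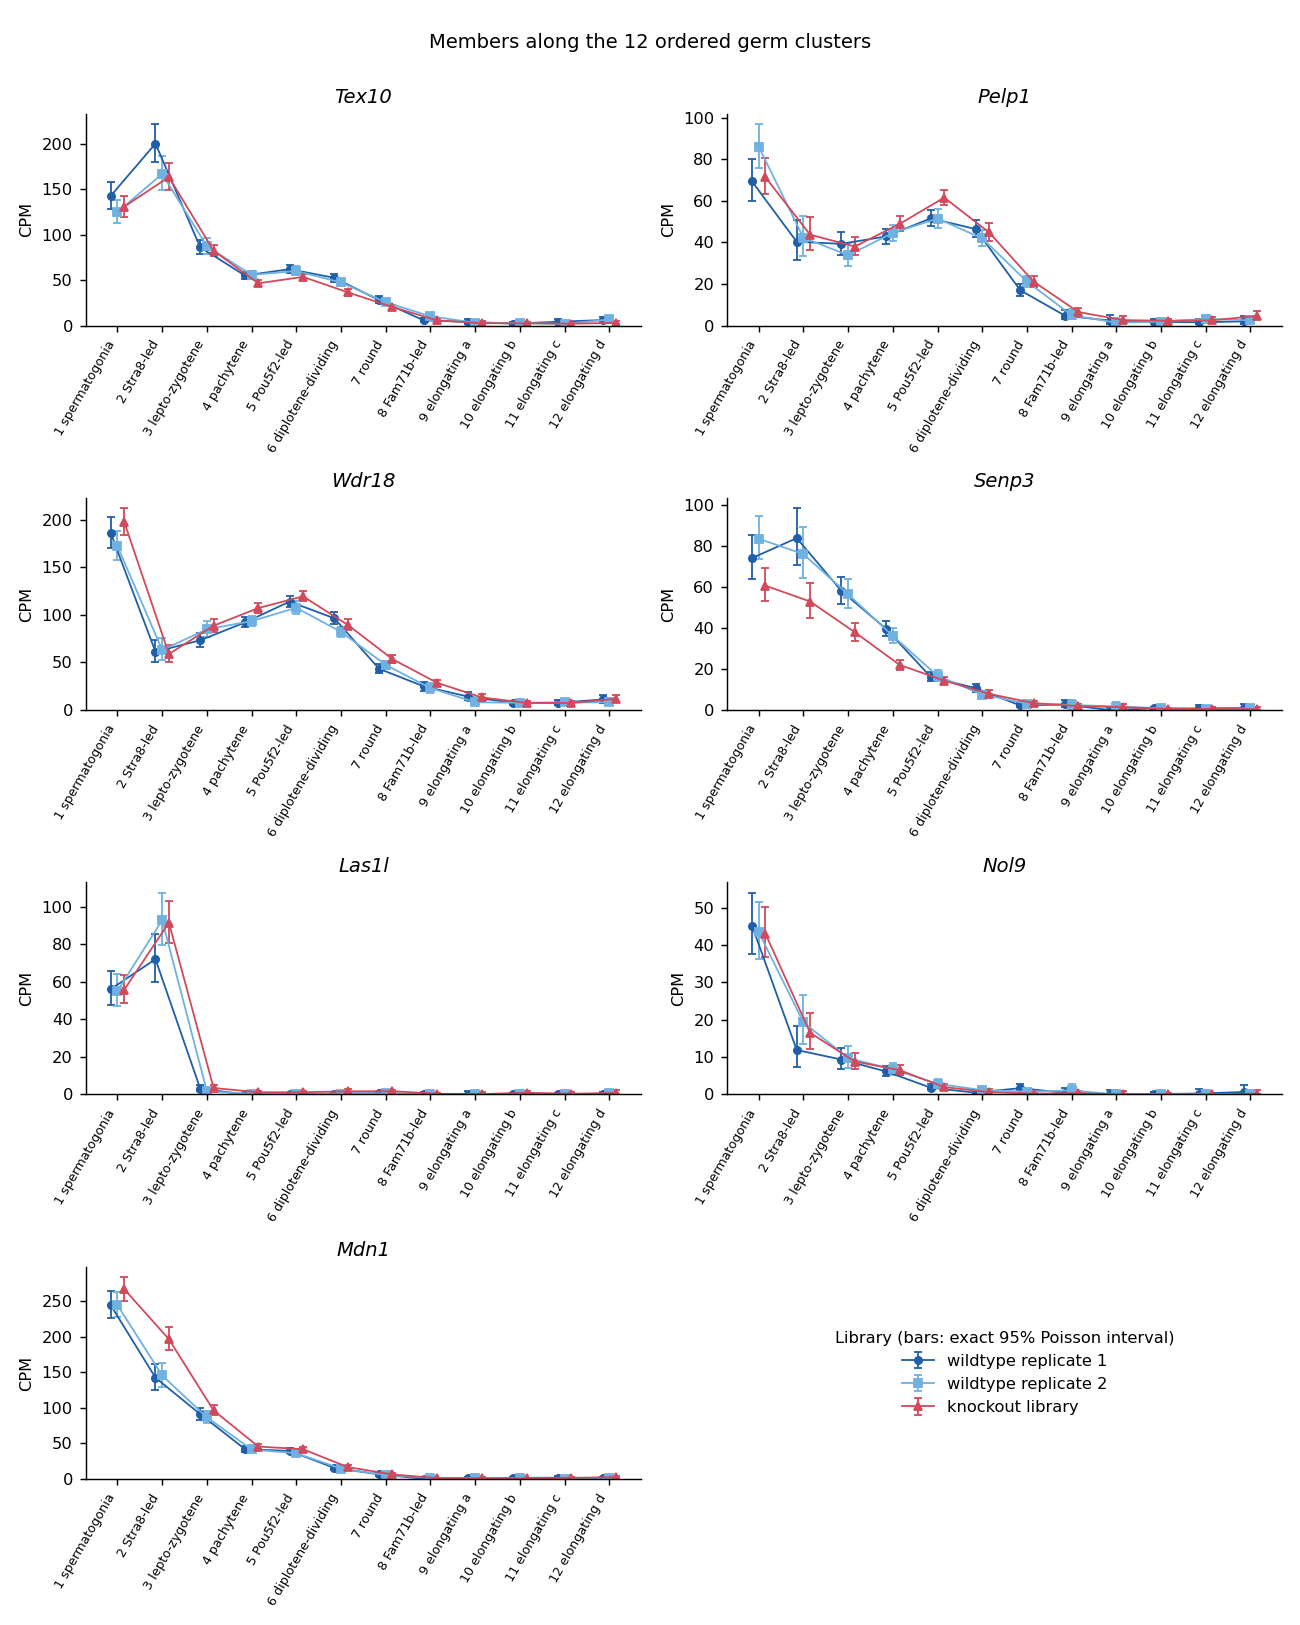
Level of each of the 7 genes in CPM (vertical axis, starting at 0) along the 12 germ clusters in order (horizontal axis). Points are the 3 libraries and bars exact 95% Poisson intervals. Tex10 and Las1l peak in cluster 2, and Tex10 is slightly higher in cluster 5 than in cluster 4. Pelp1 and Wdr18 are lower in clusters 2 and 3 and have another maximum in cluster 5, where Wdr18 stands at 114, 108 and 119.6 CPM. Senp3, Nol9 and Mdn1 decline.

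Between neighbouring named stages of the 2 wildtype libraries, Tex10 fell in 4 of 5 steps by edgeR's quasi-likelihood test with the library as a block and Benjamini-Hochberg adjustment over 17836 genes. From spermatogonia to leptotene-zygotene cells it fell by 0.30 ± 0.09 on the log2 scale (SE, edgeR adjusted p = 0.0034), where 30.3% of all genes were called lower and 29.2% higher. To pachytene cells it fell by 0.39 ± 0.09 (edgeR adjusted p = 1.7e-05), against 30.4% called lower and 25.8% higher. The step to diplotene-to-dividing cells was not called (-0.06 ± 0.08, edgeR adjusted p = 0.52), where 37.0% of all genes were called lower. To round spermatids it fell by 0.51 ± 0.10 (edgeR adjusted p = 5.5e-07), where 26.6% were called lower, and to elongating spermatids by 1.43 ± 0.15 (edgeR adjusted p = 8.8e-19), where 33.0% were called lower. These differences are relative to most genes of the stage. On library totals, as in the CPM values, the last step was -2.98. Over all 12 clusters, in a fit chosen after the data were seen, Tex10 rose by 0.34 ± 0.10 from spermatogonia to the Stra8-led cluster (edgeR adjusted p = 0.0012), where 22.9% of 16765 genes were called higher. The first named step rests on how cells are classed: it was not called at a finer clustering (-0.09), with 2000 UMIs required per barcode (-0.19), when cells were classed one by one on marker scores (-0.07) or with no filter on low counts (-0.24). The pachytene step was not called with no filter on low counts (-0.17).

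In the knockout library the Tex10 level was close to wildtype in spermatogonia and lay below both wildtype libraries in each later named stage, by little in leptotene-zygotene cells. Over all cells of the 6 named germ stages it stood at 31.7 CPM (30.5 to 33.0), against 42.0 CPM (40.3 to 43.7) in wildtype replicate 1 and 37.1 CPM (35.6 to 38.7) in wildtype replicate 2. That is 80.2% of the wildtype mean, a log2 ratio of -0.32. The 3 intervals did not overlap, those of the wildtype pair included, so that lack of overlap does not by itself mark the knockout library. The share of all genes without overlap over all germ cells was not taken. The pooled level moves with the mix of stages, and with each stage weighted equally the log2 ratio was -0.28. By stage it was 97.7% of the stage's wildtype mean in spermatogonia, 89.1% in the Stra8-led cluster, 94.97% in leptotene-zygotene cells, 83.8% in pachytene cells, 87.8% in the Pou5f2-led cluster, 73.3% in diplotene-to-dividing cells, 76.2% in round spermatids and 72.2% in elongating spermatids. The counting interval lay below both wildtype intervals in pachytene and in diplotene-to-dividing cells, where 8.29% and 8.42% of the genes tested did so too. Levels as low against both wildtype libraries were held by 5.16% of genes in pachytene cells, 2.89% in diplotene-to-dividing cells and 5.17% in round spermatids, but by 49.4% in spermatogonia. The diplotene-to-dividing log2 ratio of -0.44 was -0.20 when cells were classed one by one on marker scores, -0.21 with doublets kept and -0.22 with 2000 UMIs required per barcode. Tex10 transcripts were thus counted in every named germ stage of the knockout library, on 346 UMIs in diplotene-to-dividing cells and 663 UMIs in pachytene cells. In pachytene cells 91.3% of 208 knockout cells held at least 1 Tex10 UMI, against 94.3% of 211 and 83.2% of 285 wildtype cells. With every cell thinned to 3000 UMIs the share was 13.4% in the knockout library and 15.5% and 16.1% in the wildtype libraries, leaving out 0, 2 and 2 shallower cells in library order. In elongating cluster 10, where Tex10 is low, 3.24%, 3.72% and 5.40% of cells held a Tex10 UMI at median depths of 16273, 12476 and 23066 UMIs, and 0.68%, 1.08% and 0.90% of cells thinned to 3000 UMIs.

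Pelp1 and Wdr18, the scaffold partners of Tex10, were highest in spermatogonia, lower in the next clusters and then higher again in late meiotic prophase. Pelp1 stood at 69.3, 86.0 and 71.3 CPM in spermatogonia, at 40.3, 42.3 and 43.7 CPM in the Stra8-led cluster and at 39.3, 33.8 and 38.0 CPM in leptotene-zygotene cells. It stood at 42.9, 44.5 and 48.9 CPM in pachytene cells and at 51.6, 51.5 and 61.5 CPM in the Pou5f2-led cluster. In round spermatids it held 17.0, 21.2 and 21.1 CPM, and at most 6.49 CPM later. In each library the Pou5f2-led value thus lay above the pachytene and the leptotene-zygotene value.

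Wdr18 was also highest in spermatogonia and higher again in late prophase, but its low point between them lay in the Stra8-led cluster in each library, and that of Pelp1 in leptotene-zygotene cells. For Pelp1 the counting intervals of these clusters overlapped. The 12-cluster fit put Pelp1 higher in leptotene-zygotene cells than in the Stra8-led cluster, by 0.25 ± 0.16, which was not called (edgeR adjusted p = 0.17). The low point of Pelp1 is thus not settled, and the difference between the genes was not tested. The levels of Wdr18 were 186, 172 and 198 CPM in spermatogonia, 61.3, 63.1 and 58.9 CPM in the Stra8-led cluster and 73.3, 84.9 and 88.7 CPM in leptotene-zygotene cells. They were 92.0, 93.5 and 107 CPM in pachytene cells, 114, 108 and 119.6 CPM in the Pou5f2-led cluster and 43.4, 47.4 and 53.5 CPM in round spermatids. In elongating clusters Wdr18 still held 7.34 to 14.1 CPM in single libraries, and its wildtype means there were 4.2% to 6.2% of its highest. By the edgeR test, Pelp1 fell by 0.76 ± 0.12 and Wdr18 by 0.86 ± 0.09 into leptotene-zygotene cells (adjusted p = 3.0e-09 and 2.8e-18). From there to pachytene cells Pelp1 rose by 0.50 ± 0.11 and Wdr18 by 0.49 ± 0.08 (edgeR adjusted p = 9.0e-06 and 4.4e-08). Both fell into round spermatids, by 0.80 ± 0.11 and 0.57 ± 0.08, and into elongating spermatids, by 1.68 ± 0.18 and 0.88 ± 0.11. The pachytene rise kept its direction in every alternative run, between 0.25 and 0.72 for Pelp1 and between 0.23 and 0.81 for Wdr18, but was not called by DESeq2 (adjusted p = 0.21 and 0.13). In the 12-cluster fit both rose again into the Pou5f2-led cluster, by 0.51 ± 0.08 and 0.53 ± 0.07 (edgeR adjusted p = 3.5e-09 and 2.0e-14), where 26.4% of all genes were called higher. Tex10 also rose at that step, by 0.41 ± 0.08 (edgeR adjusted p = 5.1e-07), whereas Senp3 fell by 0.94 ± 0.11 (edgeR adjusted p = 6.7e-18), where 26.3% of all genes were called lower.

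The pattern of Wdr18 over the 7 stages with at least 50 cells in each library, which include myoid-like cells and leave out the unnamed clusters 2, 5 and 8, was the most like that of Pelp1 among the members (Pearson r = 0.984 of log2(CPM + 1) over 21 stage-by-library values). Pelp1 ranked 2 for Wdr18 among 12112 genes, after Glmn (r = 0.985), and Wdr18 ranked 5 for Pelp1. The 5 genes most like Tex10 were Lrrc42 and Ppih (r = 0.991), Eed (r = 0.990), Psmb7 and Med1 (r = 0.984). For Tex10, Wdr18 ranked 48 (r = 0.968), Pelp1 145 (r = 0.954), Mdn1 372, Senp3 1066, Nol9 3070 and Las1l 6134 (r = 0.427). The genes most like the others were Ranbp10, Gpatch11 and Ccdc88a for Pelp1, Glmn, Pelp1 and Ctu2 for Wdr18, Ftsj3, Phb2 and Eftud2 for Senp3, Arpc1b, Jade1 and Eci1 for Las1l, Nsun5, Phykpl and Inip for Nol9 and Msh6, Fam49b and Pmf1 for Mdn1. These correlations describe the order of levels only, since the values of a library share its depth and its cells, and most of their spread is between stages.

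**Figure D2:**
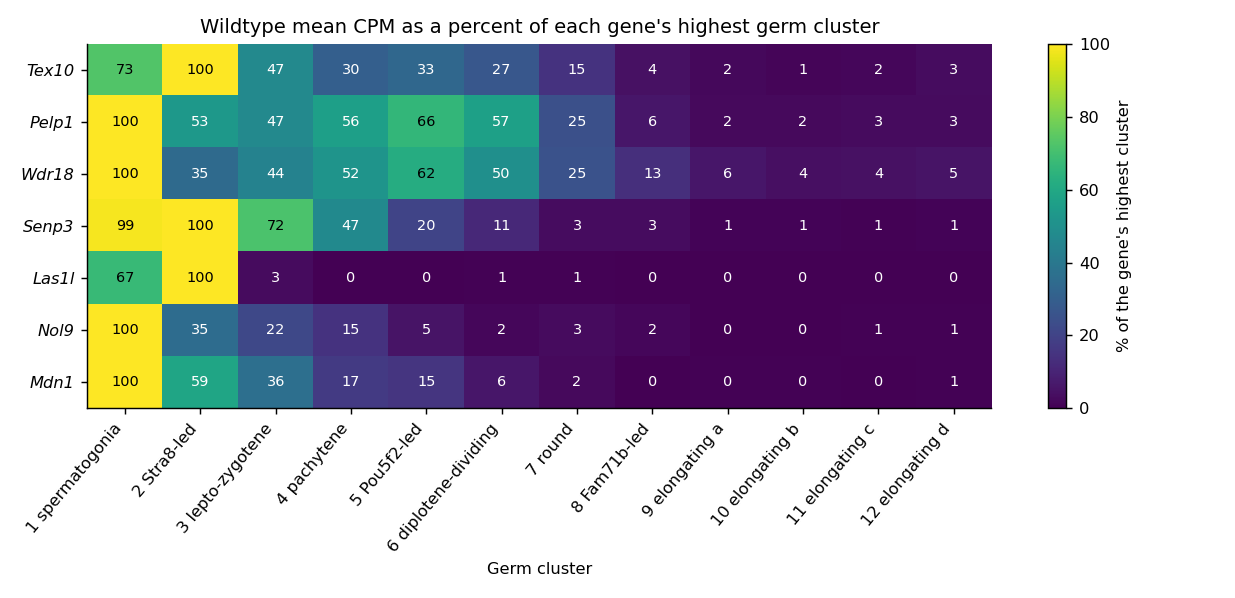
Mean wildtype level of each gene (rows) in each of the 12 germ clusters (columns) as a percentage of the gene's own highest germ cluster. Las1l drops from 100% in cluster 2 to 2.98% in cluster 3, whereas Pelp1 and Wdr18 return to 66.3% and 61.8% in cluster 5.

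Senp3, the SUMO protease of the complex, kept a high level until leptotene-zygotene and then fell steeply between pachytene and the round spermatids. It stood at 74.2, 83.7 and 60.8 CPM in spermatogonia. It stood at 84.0, 76.2 and 53.0 CPM in the Stra8-led cluster, 58.2, 56.5 and 38.0 CPM in leptotene-zygotene cells and 39.6, 36.2 and 22.1 CPM in pachytene cells. The knockout value was the lowest of the 3 in each of these clusters. In the Pou5f2-led cluster the levels were 16.1, 16.7 and 14.3 CPM, in diplotene-to-dividing cells 10.7, 7.57 and 7.94 CPM and in round spermatids 2.22, 3.14 and 3.38 CPM. In these 3 clusters the counting intervals of the libraries overlapped. By the edgeR test Senp3 fell by 0.35 ± 0.13 into pachytene cells (adjusted p = 0.012), by 1.97 ± 0.15 into diplotene-to-dividing cells (adjusted p = 1.0e-34), where 37.0% of genes were called lower, and by 1.32 ± 0.24 into round spermatids (adjusted p = 2.0e-07). The first step (-0.14 ± 0.14) and the last (-0.25 ± 0.36) were not called (edgeR adjusted p = 0.40 and 0.56), but both were on library totals (-0.47 and -1.79). The pachytene step was not called with no filter on low counts (-0.13).

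Senp3 was the member furthest from wildtype in the knockout library at the stages where it is well counted. Its level there was 66.2% of the wildtype mean in the Stra8-led cluster, 66.3% in leptotene-zygotene cells and 58.2% in pachytene cells. In each of these 3 clusters its counting interval lay below both wildtype intervals, as it did for 2.02%, 4.51% and 8.29% of the genes tested there. In pachytene cells the intervals were 19.7 to 24.7 CPM in the knockout library, 36.2 to 43.3 CPM in wildtype replicate 1 and 32.8 to 39.9 CPM in wildtype replicate 2. A level as low against both wildtype libraries was held by 4.55% of genes in spermatogonia, 1.36% in the Stra8-led cluster, 0.56% in leptotene-zygotene cells and 0.60% in pachytene cells. The log2 ratio in pachytene cells was -0.75 and ranged from -0.51 to -0.82 over the alternatives, and in leptotene-zygotene cells it was -0.58 with a range from -0.56 to -0.62. Of pachytene cells thinned to 3000 UMIs, 6.10% of the knockout cells held a Senp3 UMI, and 11.2% and 10.7% of those from the wildtype mice. Unthinned, these shares were 87.7%, 71.6% and 70.2% in library order, at median depths of 61090, 39225 and 72997 UMIs. In elongating cluster 10 the thinned shares of Senp3 were 0.241%, 0.353% and 0.167%. Somatic-like cells also had lower values. In Sertoli-like cells Senp3 stood at 58.1 CPM (23 UMIs), 55.4 CPM (13 UMIs) and 24.7 CPM (34 UMIs), in Leydig-like cells at 24.9, 18.6 and 9.76 CPM and in myoid-like cells at 21.6, 30.02 and 12.8 CPM. The knockout value was 43.6%, 44.8% and 49.4% of the wildtype mean in these 3 somatic types, but on 8 to 34 UMIs a library the intervals overlapped.

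**Figure D3:**
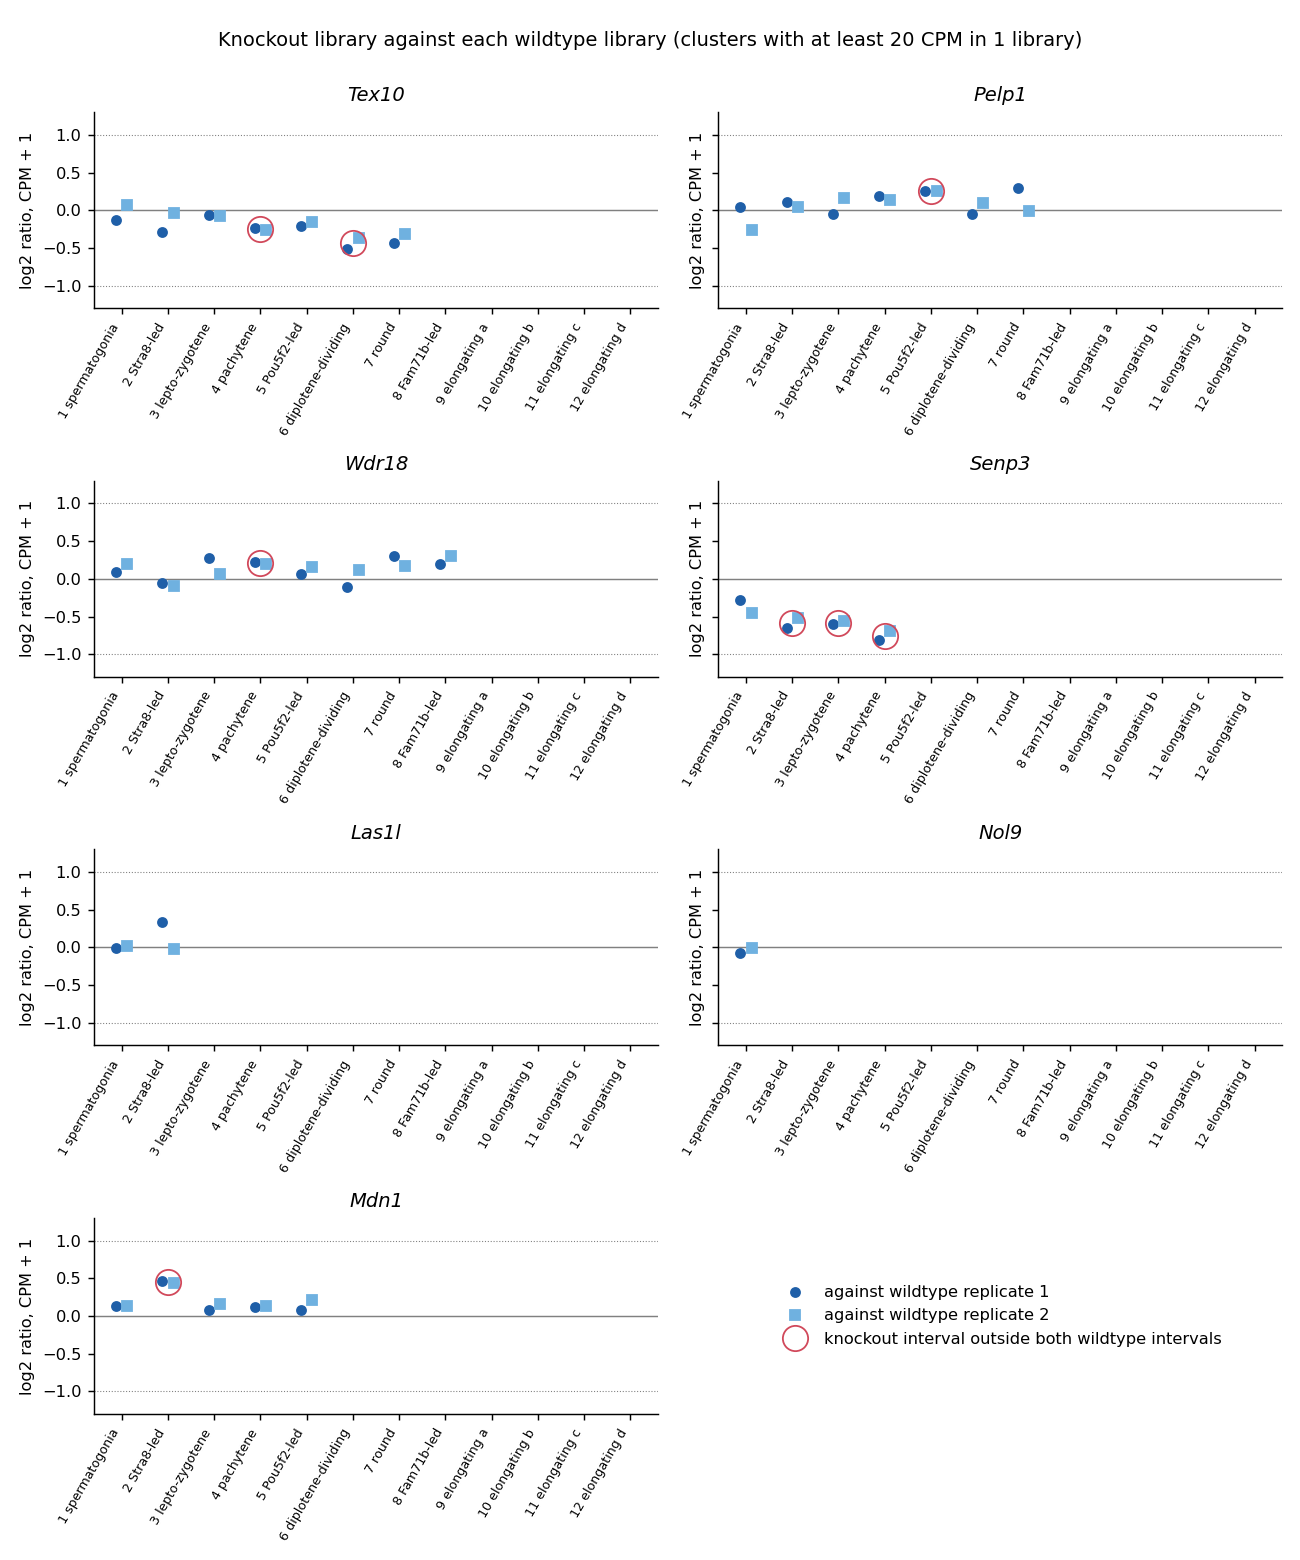
Log2 ratio of CPM + 1 of the knockout library against wildtype replicate 1 (circles) and wildtype replicate 2 (squares) for each gene in the germ clusters where at least 1 library reached 20 CPM, with dotted lines at the limits of the size rule (1 and -1). Red circles mark clusters whose knockout counting interval lay outside both wildtype intervals, which for Senp3 are clusters 2, 3 and 4 and for Tex10 clusters 4 and 6.

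Las1l, the X-linked endonuclease, rose from spermatogonia to the Stra8-led cluster and was almost lost in cluster 3, named leptotene-zygotene. The best marker match of the Stra8-led cluster was leptotene-zygotene too. It stood at 56.1, 55.1 and 55.7 CPM in spermatogonia, and at 72.1, 92.9 and 91.6 CPM in the Stra8-led cluster. In leptotene-zygotene cells it stood at 3.18 CPM (17 UMIs), 1.73 CPM (8 UMIs) and 3.45 CPM (27 UMIs), and in pachytene cells at 0, 0.35 and 1.19 CPM (0, 4 and 17 UMIs). The count of 0 in wildtype replicate 1 allows a level of up to 0.237 CPM. The 12-cluster fit called the rise into the Stra8-led cluster (0.46 ± 0.16, edgeR adjusted p = 0.0086) and the fall into leptotene-zygotene cells (-4.60 ± 0.25, edgeR adjusted p = 4.6e-76), where 22.9% of genes were called higher and 26.6% lower. Between named stages Las1l fell by 4.13 ± 0.25 and then by 3.54 ± 0.63 (edgeR adjusted p = 4.4e-49 and 1.2e-07), and the 3 later steps were not called (edgeR adjusted p = 0.084, 0.32 and 0.49).

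The X chromosome as a whole lost its UMIs at the same clusters, but regained them later, while Las1l stayed low. X-linked genes took 2.19%, 2.16% and 2.18% of UMIs in the Stra8-led cluster, 0.184%, 0.187% and 0.212% in leptotene-zygotene cells and 0.0411%, 0.0498% and 0.0440% in pachytene cells. In round spermatids the share was back at 1.64%, 1.60% and 1.52%. Las1l in round spermatids stood at 0.654, 0.579 and 1.77 CPM, which for the wildtype pair is 0.748% of its Stra8-led level. Of 224 other X-linked genes that reached 20 CPM in the Stra8-led cluster, 59 were lower than Las1l by this measure in round spermatids, and their median was 4.001%. Summed, these 224 genes held 239, 287 and 231 CPM in the Pou5f2-led cluster and 11659, 11295 and 10720.2 CPM in round spermatids, while many of them stayed low.

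In the knockout library a small Las1l signal stayed through meiosis. In the Pou5f2-led cluster it had 22 UMIs there and 2 and 1 in the wildtype pair, or 1.18 CPM (0.741 to 1.79) against 0.157 CPM (0.0191 to 0.569) and 0.102 CPM (0.0026 to 0.570). That interval lay above both wildtype intervals, as did those of 11.4% of the genes with at least 20 CPM there. Las1l itself lay far under 20 CPM, and the share does not cover genes of so few counts. Its UMIs were spread over 15 of 185 knockout cells (8.11%), with at most 3 in a cell, against 2 of 158 and 1 of 155 wildtype cells. The knockout value was above both wildtype values in 9 of 12 clusters, including pachytene cells (17 UMIs against 0 and 4), diplotene-to-dividing cells (16 against 5 and 5), round spermatids (24 against 5 and 7) and elongating cluster 10 (12 against 1 and 1), but only in the Pou5f2-led cluster did its interval clear both wildtype intervals. Of the 224 other X-linked genes 145 stood above both wildtype values in leptotene-zygotene cells (median log2 ratio 0.33, against 0.37 for Las1l) and 123 in pachytene cells (0.13 against 0.90). In the Pou5f2-led cluster 57 did (-0.05 against 0.95), in diplotene-to-dividing cells 83 (0.02 against 0.88) and in round spermatids 81 (0.00 against 0.77). In the Pou5f2-led cluster the X share was 0.0321% against 0.0326% and 0.0402%. Low-UMI barcodes also had their highest Las1l level in the knockout library, at 6.90 CPM against 3.56 and 4.57 CPM. The 16 Sertoli markers summed to 47.8 CPM in the Pou5f2-led cluster of the knockout library, against 25.1 and 46.0 CPM in the wildtype pair. In the knockout library 1 marker was at 0, on 18607709 UMIs in the cluster. In each wildtype library 3 were, on 12699896 and 9774336 UMIs. The part of low-UMI barcodes and of Sertoli RNA in the Las1l counts was not tested.

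**Figure D4:**
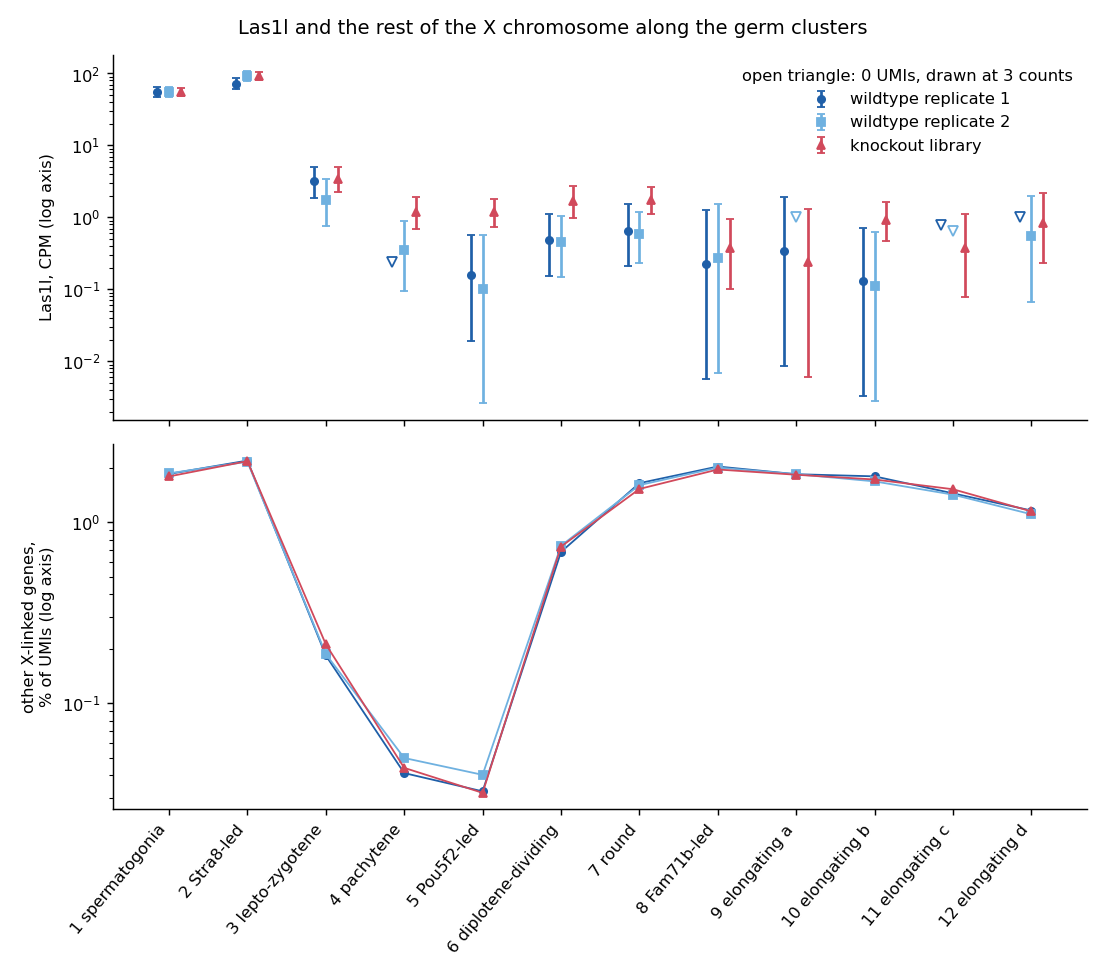
Las1l level in CPM and the share of UMIs from all other X-linked genes in percent (vertical axes, both logarithmic) along the 12 germ clusters in the 3 libraries, with exact 95% Poisson intervals for Las1l. Open triangles mark clusters with 0 Las1l UMIs and are drawn at the level of 3 counts. The X share returns to 1.52% to 1.64% in round spermatids, whereas Las1l stays at or under 1.77 CPM there.

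Nol9, the kinase that acts after LAS1L, and Mdn1, the ATPase, were both highest in spermatogonia. By leptotene-zygotene they stood at 21.5% and 36.4% of that level, while the 3 scaffold genes were at 44.1% to 47.3% of their highest. Nol9 stood at 45.2, 43.5 and 43.1 CPM in spermatogonia, at 9.36, 9.75 and 8.83 CPM in leptotene-zygotene cells and at 6.16, 6.74 and 6.52 CPM in pachytene cells. Later clusters had 0 to 37 UMIs a library. Nol9 was the member whose knockout interval cleared both wildtype intervals in 0 of 12 clusters. By the edgeR test Nol9 fell by 1.88 ± 0.19 into leptotene-zygotene cells (adjusted p = 2.1e-20) and by 2.83 ± 0.31 into diplotene-to-dividing cells (adjusted p = 2.7e-18), and the pachytene step was not called (-0.32 ± 0.21, adjusted p = 0.21). On library totals that step was called as well (-0.57), as it was in 3 other alternatives.

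Mdn1 stood at 244, 244 and 267 CPM in spermatogonia, 142, 146 and 197 CPM in the Stra8-led cluster and 91.1, 86.6 and 96.3 CPM in leptotene-zygotene cells. It stood at 42.0, 41.5 and 45.6 CPM in pachytene cells, 15.6, 14.5 and 16.7 CPM in diplotene-to-dividing cells and 6.54, 5.46 and 6.40 CPM in round spermatids. Mdn1 was the member that fell at each of the 5 steps, by 1.13 ± 0.08, 0.84 ± 0.09, 1.38 ± 0.11, 0.96 ± 0.17 and 0.85 ± 0.28 (edgeR adjusted p between 4.8e-35 and 0.0041). The last of these was not called by DESeq2 (-0.59) or with 2000 UMIs required per barcode (-0.52). Its Stra8-led knockout level reached 136.5% of the wildtype mean, with an interval above both wildtype intervals, as for 2.69% of genes there.

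Counted over the 7 genes and 5 named steps, 22 of 35 differences were called lower and 2 higher, the latter being Pelp1 and Wdr18 at the pachytene step. Of the members 6 of 7 were lower at the step into leptotene-zygotene cells, 4 lower and 2 higher at the step into pachytene cells, 3 lower into diplotene-to-dividing cells, 5 lower into round spermatids and 4 lower into elongating spermatids. Set against the shares of all genes called lower at these steps, 30.3%, 30.4%, 37.0%, 26.6% and 33.0%, the members' shares lay above them at each step, by the least at the step into diplotene-to-dividing cells, and 1 gene more or less moves them widely. The median difference of the members at the first step was -0.86, against -0.05 over all genes. Small-subunit and box C/D factors had 12 of 20 lower and 4 higher at the first step (median -0.63), and pre-60S assembly factors, which build the large subunit around the same precursor, 19 of 34 lower and 7 higher (median -0.38). RNA polymerase I genes had 5 of 15 lower and 7 higher (median 0.00), the SUMO pathway 6 of 19 lower and 9 higher (median 0.22), the spacer-trimming and exosome genes 8 of 18 lower and 6 higher (median -0.22) and the chromatin partners 6 of 18 lower and 7 higher (median 0.19). At the step into diplotene-to-dividing cells the median of the members was -0.06, with 3 of 7 lower. RNA polymerase I genes had 11 of 15 lower and 2 higher (median -1.83), the chromatin partners 10 of 18 lower and 3 higher (median -1.41), small-subunit factors 15 of 20 lower and 1 higher (median -1.34) and pre-60S factors 24 of 34 lower and 5 higher (median -1.01). The spacer-trimming and exosome genes had 12 of 18 lower and 6 higher (median -0.53) and the SUMO pathway 10 of 19 lower and 5 higher (median -0.29).

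No member passed the size rule in the knockout library. The rule asks that the knockout library differ from each of the wildtype libraries by a log2 ratio of CPM + 1 of 1 or more, in the same direction, that the smaller ratio be at least 2 times that between the wildtype libraries, and that 1 library reach 20 CPM. It was met by 0.366% of 7382 genes in spermatogonia, 0.249% in leptotene-zygotene cells, 0.513% in pachytene cells, 1.01% in diplotene-to-dividing cells, 1.23% in round spermatids, 1.4% in elongating spermatids and 2.47% in myoid-like cells. Of 49 combinations of member and stage 28 reached 20 CPM and 0 passed. With a limit of 1.5-fold Senp3 passed as lower in pachytene cells, and without wildtype replicate 1 it passed as lower in myoid-like cells. When 1 wildtype library is left, the condition on the ratio between the wildtype libraries is always met. The share of all genes that pass either looser rule was not taken. A knockout value below both wildtype values, which 29.6% to 39.3% of genes of at least 20 CPM had in a cluster, was held by Tex10 in 9 of 12 clusters, Senp3 in 8, Nol9 in 6, Wdr18 in 2 and Mdn1 in 1. A value above both, which 33.1% to 48.2% of such genes had, was held by Las1l in 9, by Pelp1, Wdr18 and Mdn1 in 7 each and by Senp3 in 1. These counts take in clusters where a member lay under 20 CPM, which the shares do not cover. Nol9 reached 20 CPM only in spermatogonia, Las1l also in the Stra8-led cluster, and Senp3 only up to pachytene cells. No member reached it in the elongating clusters. Besides the clusters given above, the counting interval lay above both wildtype intervals for Wdr18 in pachytene cells (115.6% of the wildtype mean) and for Pelp1 in the Pou5f2-led cluster (119.4%), as for 9.22% and 11.4% of genes there.

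Of the genes around the complex, Mrto4 differed most in the knockout library. Mrto4, an assembly factor of the large subunit whose gene is on chromosome 4, stood at 142, 137 and 286 CPM in pachytene cells. It stood at 67.2, 59.2 and 287 CPM in diplotene-to-dividing cells (log2 ratio 2.17) and at 38.0, 34.6 and 179 CPM in round spermatids (log2 ratio 2.27). In spermatogonia the 3 values were 197, 185 and 207 CPM, so that the libraries parted only after that stage. Rrs1, another assembly factor, stood at 43.2, 49.3 and 20.7 CPM in myoid-like cells, on 24, 23 and 13 UMIs. These were 4 of 525 combinations of pathway gene and stage that passed the size rule. Tex10, Nol9 and Mdn1 share chromosome 4 with Mrto4, and the genes of that chromosome passed the rule more often than the rest: 5.03% of 378 in diplotene-to-dividing cells and 5.31% of 358 in round spermatids, against 1.01% and 1.23% over all chromosomes. On chromosome 11, which holds Pelp1 and Senp3, 0 of 466 and 1 of 423 passed in these stages. The part of chromosome 4 in the values of its members was not tested.

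Apart from Mrto4 and Rrs1 no gene of the lists passed, and most differences were small. The largest medians over stages belonged to Cbx3 (0.42), a heterochromatin protein, with 253, 290 and 364 CPM in spermatogonia, to Cbx2 (0.40), a Polycomb protein tested in spermatogonia alone, and to Noc2l (-0.82), which rests on spermatogonia and on myoid-like cells with 4 to 15 UMIs. Mtrex (0.27) and Exosc10 (0.24), a helicase and a nuclease of the nuclear exosome, and Wdr43 (0.25) and Utp3 (0.22), small-subunit factors, followed. Then came Pias4 (0.20) and Sumo2 (-0.19) of the SUMO pathway, and Polr1b (0.19) and Polr1a (0.14), the largest subunits of RNA polymerase I. The Polr1b value rests on 1 stage and that of Wdr43 on 3. The median log2 ratio of the pre-60S list was between -0.03 and 0.22 over the 7 stages, against -0.04 to 0.02 over all genes, and 0 members of the SUMO list passed in any stage.

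Among the 3 somatic types all 7 members had their highest wildtype mean in Sertoli-like cells, the supporting cells of the tubule. Las1l stood at 111, 119 and 93.8 CPM there, above its value in every germ cluster of the same library, and the wildtype libraries did not overlap with the Stra8-led cluster although the counting intervals did. Tex10 held 42.9, 68.2 and 50.2 CPM there, Wdr18 73.2, 76.7 and 80.7 CPM and Mdn1 40.4, 51.1 and 44.4 CPM, all under their levels in spermatogonia. Pelp1 held 37.9, 59.7 and 39.3 CPM and Nol9 17.7, 21.3 and 13.8 CPM. Leydig-like cells, which make testosterone, had wildtype means from 1.16 CPM for Nol9 to 37.5 CPM for Wdr18. In myoid-like cells, the contractile cells around the tubule, Tex10 stood at 27.0, 21.4 and 19.1 CPM, Pelp1 at 28.8, 23.6 and 17.5 CPM and Las1l at 23.4, 30.02 and 28.7 CPM. Nol9 stood at 5.40, 4.29 and 14.4 CPM there, on 3, 2 and 9 UMIs. The somatic values rest on 14 to 51 Sertoli-like and 24 to 40 Leydig-like cells a library, so that only myoid-like cells, with 88 to 94, entered the size rule.

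**Figure D5:**
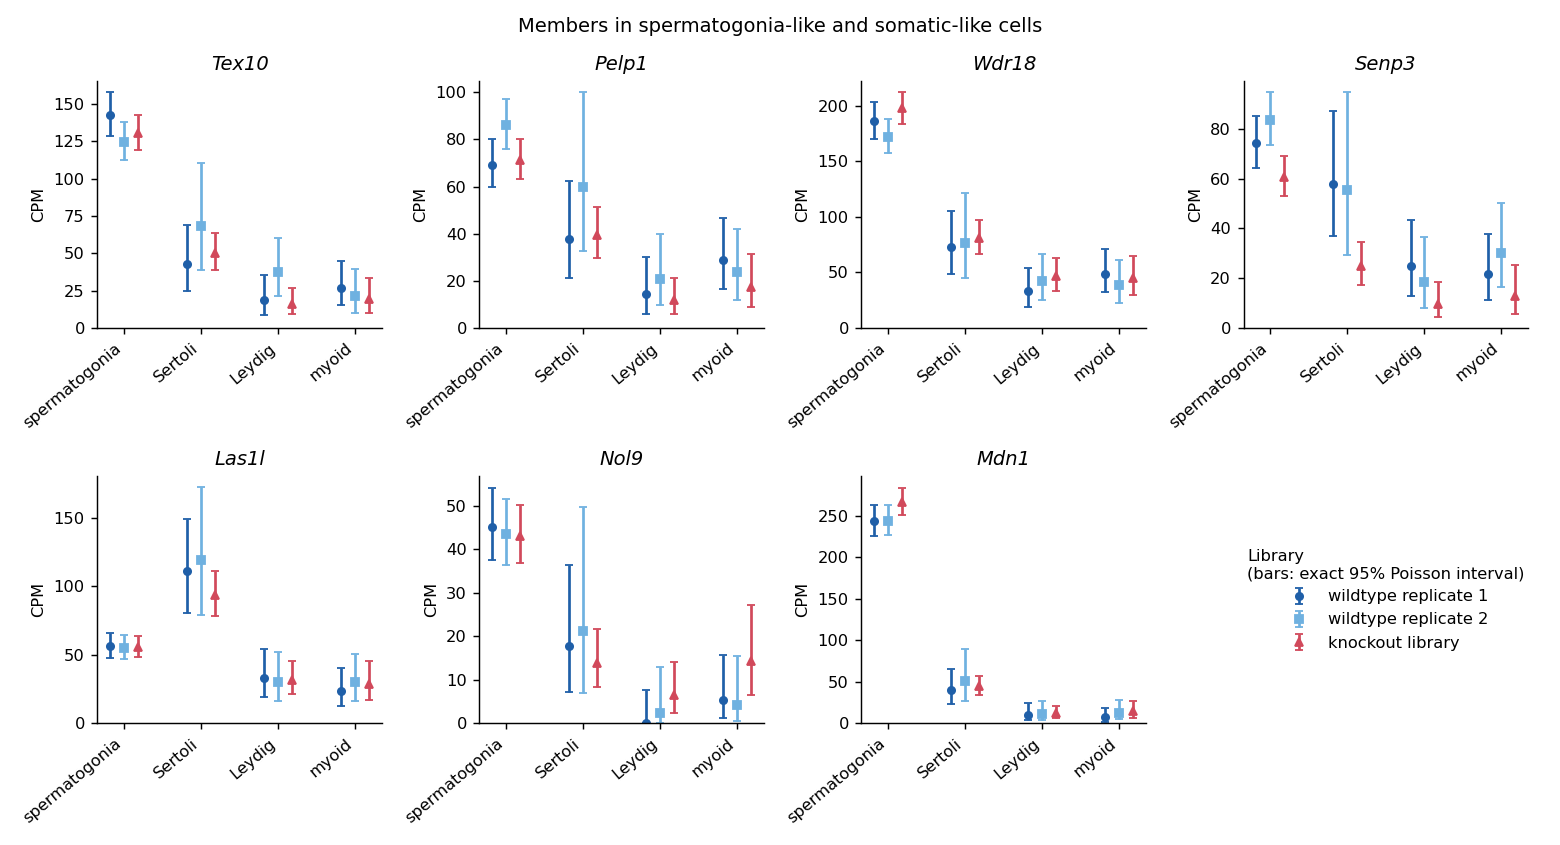
Level of each of the 7 genes in CPM (vertical axis, starting at 0) in spermatogonia-like, Sertoli-like, Leydig-like and myoid-like cells of the 3 libraries, with exact 95% Poisson intervals. Las1l stands higher in Sertoli-like cells (93.8 to 119 CPM) than in spermatogonia (55.1 to 56.1 CPM), and the knockout value of Senp3 is the lowest of the 3 in each of the 4 classes.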

How the data were processed

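The deposited matrices hold the authors' UMI counts of each gene in each barcode, not normalized, made with Cell Ranger per the file headers. The submitters' processing notes name Cell Ranger 4.0.0, Seurat 4.0.5 and mm10; the annotation and the use of strand are not given in the sources used here. Totals were 93418341, 96001773 and 147783171 UMIs over 9967, 10153 and 12918 barcodes. Gene positions came from GENCODE M21 on GRCm38, which matched 32235 of 32285 genes by identifier.

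Barcodes with at least 1000 UMIs, 500 genes and at most 10% mitochondrial UMIs were kept. Scrublet (scanpy 1.11.5) marked 0, 1 and 0 doublets, so the top 8% of its scores were left out instead. Cells were clustered (2000 variable genes, members and pathway genes excluded, 30 components, 15 neighbours, Leiden resolution 1, leidenalg 0.10.2) and named from marker lists, with at least 3 detected markers. Of 31 clusters, 15 had a median UMI total under 3 times the library's lowest and were left unnamed. This limit, the cluster order and the fit over 12 clusters were chosen after seeing the data. Names are rebuilt and may differ from the study's.

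UMI counts were summed per library and stage. Stages were compared with edgeR 4.0.16 (R 4.3.3; filterByExpr, TMM, library as block, Benjamini-Hochberg), tested on simulated data; each mouse gave every stage, which pairs them by design. The wildtype libraries are separate mice. Knockout values were described by the size rule and by Poisson intervals. All 7 members are named, pathway genes that passed the size rule, the 2 of each list with the largest median ratio, and the genes of most similar pattern. Members and lists were chosen with earlier results of these data known. Alternatives, DESeq2 1.42.0 included, are in the closing section.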

Additional observations from a re-analysis of the deposited data

How the results depend on the processing

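The count of members past the size rule in the knockout library, 0, became 1 with no doublet removal (Mdn1 higher in myoid-like cells), 1 with no CPM minimum (Nol9 higher in myoid-like cells) and 1 with a 1.5-fold limit (Senp3 lower in pachytene cells), and ranged from 0 to 1 when a wildtype replicate was left out. Pathway combinations past the rule, 4, ranged from 6 to 8 when a wildtype replicate was left out, with the additions all in myoid-like cells, which have few UMIs. When 1 wildtype library is left, the rule's condition on the ratio between the wildtype libraries is always met. The share of all genes passing under these alternatives was not taken. The Tex10 log2 ratio over germ cells, -0.32, kept its sign in all 11 alternatives, between -0.23 and -0.41. Member differences called between stages, 24 of 35, numbered 21 to 29 in the alternatives and 24 with no replicate block, so the pairing by mouse changed no count. Of 385 alternative values for single differences, 358 kept direction and side of the threshold, 16 passed it newly and 10 no longer passed. 1 reversed: Tex10 from pachytene to diplotene-to-dividing cells was 0.28 when cells were classed one by one on marker scores, against -0.06. No paired analysis was possible for knockout against wildtype because there is 1 knockout library. With at most 5% mitochondrial UMIs no pachytene class was found, so that setting gives no pachytene value. The causes of these changes were not tested. Depth limits Las1l and Nol9 after leptotene-zygotene and every member in elongating spermatids and somatic-like cells.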
